A study of Mus musculus with 8 samples.

Results

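Cd209a-positive type 2 dendritic cells were 97 of the 53528 cells of a pooled table of droplet single-cell RNA from mouse hepatoma tumours, read at the 3′ ends of transcripts and counted as UMIs, tags that mark single captured molecules. The cells were chosen by their deposited values of a few genes: a cell was a member when its value of Cd209a, a C-type lectin of the DC-SIGN family, was at least 1 and the mean of the myeloid adaptor genes Tyrobp and Fcer1g was at least 0.5. It also had to lie below a mean of 0.8 for the complement genes C1qa, C1qb and C1qc, 0.5 for the T cell genes Cd3g and Trbc2, 0.8 for the type 1 dendritic genes Xcr1, Clec9a and Wdfy4, and 1.2 for the mature dendritic genes Ccr7, Fscn1 and Ccl22. The tumours were grown from Hepa1-6, a mouse hepatoma line, and the study asked what editing of Soat1, a cholesterol-esterifying enzyme, does to the immune cells of the tumour. Its labels name 4 groups, each with a cDNA and an oligo entry and no replicate: unedited cells with PBS injected intraperitoneally, unedited cells with an antibody to PD-1 given by the same route, Soat1-edited cells with PBS, and Soat1-edited cells with the antibody. Titles call the edited line a knockout and the genotype field calls it a knockdown, and neither the host strain nor the number of animals per library is given in the sources used here. Nothing ties the cells to these groups, so no genotype or treatment was compared and the table counts as 1 sample.

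Type 2 conventional dendritic cells take up antigen, load it on MHC class II molecules and present it to CD4 T cells. In mouse tissues they are told from type 1 dendritic cells, which cross-present antigen to CD8 T cells, by CD11b, SIRPα and, in part of them, the galactose-binding lectins encoded by Clec10a and Mgl2. Monocyte-derived cells can carry several of the same proteins, so Flt3, Ly6c2 and Fcgr1 are usually read beside them.

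The last number of a cell name takes 6 values, and the cells that share one are called a set here and treated as an unassigned sample. Values of set 1 are unaltered: UMIs per 10000 in the cell, plus 1, on a natural log scale. Whole UMIs could therefore be recovered there, with totals from 1001 to 261833 per cell. Negative values in the other sets show a later change that no source used here records, so their depth is unknown, and it is also unknown whether the 6 sets are independent. Levels below are means of the deposited values in each set, in natural log units, given as the lowest to the highest set with the median. Differences between classes of cells were taken within each set, and cells were not treated as replicates, so there are no p-values. Names without the set number cannot show cells shared by libraries, since they are running numbers: 12741 of 22421 occur in more than 1 set.

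The 97 cells were 1.89% of the 5129 myeloid cells (exact Clopper-Pearson 95% interval 1.54 to 2.30, for counting error only) and 0.181% of all cells (interval 0.147 to 0.221). The sets held 8, 18, 18, 19, 10 and 24 of them in the order of their numbers. In the same order, their shares of myeloid cells were 1.12%, 2.69%, 2.23%, 1.60%, 1.65% and 2.09%. Set 1 was the lowest and set 2 the highest, but their intervals, 0.485 to 2.20 and 1.60 to 4.23, overlapped. Among the 3 kinds of dendritic cell taken by these gates, with 144 type 1 and 96 mature cells, the Cd209a-positive cells made up 28.8% (interval 24.0 to 33.9), and the sets ran from 19.2% to 39.1%.

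**Figure D1:**
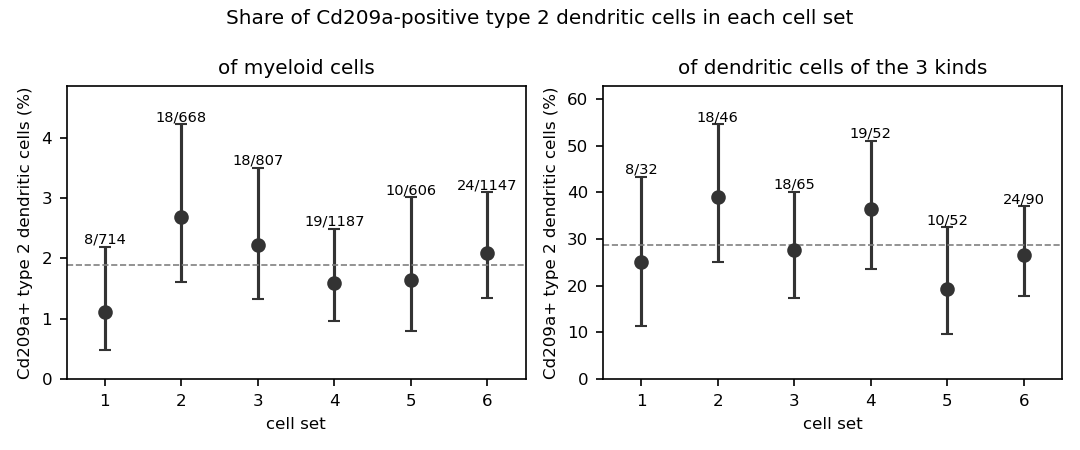
Share of Cd209a-positive type 2 dendritic cells among myeloid cells (left) and among the 3 kinds of dendritic cell (right) in each set, in percent. Points are shares with exact 95% binomial bars, labels give cells over the total, and the dashed line is the share over all sets. The left panel runs from 1.12% in set 1 to 2.69% in set 2, with overlapping bars.

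Cd209a reached 1 in 147 cells, and 50 of these were not members. Of the 50, 33 were past the T cell gate, 19 had too little Tyrobp and Fcer1g, 5 were past the C1q gate, 2 past the type 1 gate and 2 past the mature gate, with overlaps. The Cd209a value chose the members and is given only as a description. Just inside the threshold, 20 cells with Cd209a from 1 to 1.5 had a median Clec10a value of 1.36 and a median H2-Ab1 value of 3.71. Just outside, 7 cells with Cd209a from 0.5 to 1 had 0.977 and 3.77. The 2530 cells that passed the other gates with Cd209a below 0.5 had 0 and 1.58.

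The UMIs behind Cd209a in set 1 describe the rule and support nothing, since a member needs a Cd209a UMI. The gene had 39 UMIs in the 8 members, all of which had at least 1. It was found in 1 of 233 C1q-low myeloid cells, in 0 of 409 C1q macrophages (which allows a share of up to 0.733%) and in 0 of 17 type 1 dendritic cells (up to 17.6%). It was also found in 1 of 7 plasmacytoid cells, and 6 of 2942 cells in none of these classes held 43 Cd209a UMIs, more than the members, with 5 of them keeping a UMI after thinning to 1000 UMIs. Hepatoma cells, which should lack the gene, had a Cd209a UMI in 0.193% (11 of 5714) at a median depth of 18976.5 UMIs, against 3034 UMIs in the members. Thinned to 1000 UMIs per cell, 5 of the 8 members kept a Cd209a UMI and 0 hepatoma cells did. Depth set the threshold unevenly: below 5820 UMIs a single UMI gives a value of 1, and 7 of the 8 set 1 members were below that depth. Of all 97 cells, 6 also passed another gate, 3 of them that for plasmacytoid dendritic cells, 2 for hepatoma cells and 1 for NK cells.

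Against the other 5032 myeloid cells, the members carried more of the type 2 lectin Clec10a, of MHC class II genes, of the dendritic genes Kmo and Napsa, of the corepressor gene Cbfa2t3 and of the heat-shock genes Hspa1a and Hspa1b. They carried less of the macrophage genes Mmp12 and Lgmn and of the chemokines Cxcl2 and Ccl24. A gene was counted as higher or lower only where the difference of means exceeded 0.5 natural log units in the same direction in all 6 sets. Of 1972 genes outside the gates, 20 were higher, or 1.01%, and 14 were lower, or 0.71%. Irrespective of size, 134 genes were higher and 515 lower in all 6 sets, and the median difference over all genes was -0.00615. The other myeloid cells comprised 2558 C1q macrophages, 1934 C1q-low myeloid cells, 213 neutrophils and 87 plasmacytoid dendritic cells beside the 2 other dendritic kinds. Since the rule itself keeps C1q macrophages out, lower macrophage genes are in part built into this contrast, and the C1q-low cells are used beside it below.

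**Figure D2:**
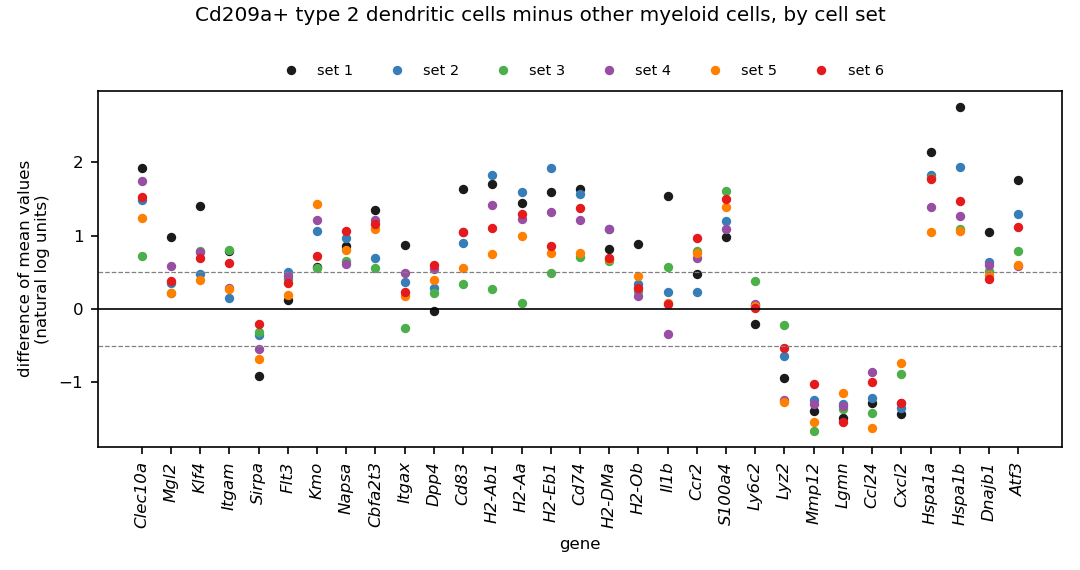
Mean value in Cd209a-positive type 2 dendritic cells minus that in other myeloid cells of the same set, in natural log units, for genes ordered by role. Each point is 1 of the 6 sets and dashed lines mark differences of 0.5 and -0.5. All 6 points for Clec10a, Kmo, Napsa, Cbfa2t3, Cd74, H2-DMa, S100a4, Hspa1a, Hspa1b and Atf3 lie above 0.5, and all 6 for Mmp12, Lgmn, Ccl24 and Cxcl2 lie below -0.5.

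Of the 17 type 2 dendritic genes in the table that the rule did not use, 1 was higher by the rule of size and none lower. In all 6 sets, 9 were higher and 1 lower, with a median difference of 0.265. For all 1972 genes, 20 were higher and 14 lower by size, and 134 higher and 515 lower in all 6 sets. Clec10a, a lectin for galactose-type sugars, had set means of 1.1 to 2.28 (median 1.8) in the members and 0.26 to 0.37 (median 0.318) in other myeloid cells. The set means of the groups did not overlap, and the difference was 1.51 (0.729 to 1.92), smallest in set 3. Plasmacytoid dendritic cells taken alone did overlap with the members, at 0.923 to 1.21 (median 1.07), and lay above them in set 3. Mgl2, the close paralogue of Clec10a, was at 0.669 to 1.36 (median 0.706) against 0.205 to 0.48 (median 0.356), a difference of 0.366 (0.219 to 0.979). Klf4, a transcription factor needed by part of the type 2 lineage, was higher by 0.733 (0.396 to 1.4). Its set means in the members, 1.37 to 2.38, overlapped with C1q-low cells, at 1.28 to 1.42, and plasmacytoid cells, at 0.686 to 1.91. Klf4 also stood at 375 CPM in set 1 hepatoma cells, whose part in the result was not tested. CPM here is the gene's UMIs over all UMIs of the cells, on the usual CPM scale. Itgam, which encodes CD11b, differed by 0.453 (0.151 to 0.808) from other myeloid cells as a whole. It had no single direction against C1q-low cells, at 0.263 (-0.0234 to 0.559), and overlapped with neutrophils, which ran from 0.709 to 1.16. Sirpa, which encodes SIRPα, went the other way: it was at 0.521 to 1.17 (median 0.897) in the members and 1.32 to 1.49 (median 1.37) in other myeloid cells. It was lower in all 6 sets, with a difference of -0.453 (-0.905 to -0.198), and higher than in type 1 dendritic cells in all 6, by 0.46 (0.0136 to 0.638). It was also higher than in mature dendritic cells in all 6 sets, by 0.388 (0.0909 to 0.873). Irf4 was not analysed here. Clec10a and Mgl2 are similar in sequence, and how reads matching both were counted is not given in the sources used here.

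Of 15 genes shared by several dendritic types, 2 were counted as higher and none as lower. In all 6 sets, 8 were higher and 0 lower, with a median difference of 0.375. All 1972 genes gave 20 higher and 14 lower by size, and 134 higher and 515 lower in all 6 sets. Kmo, an enzyme that acts on kynurenine, stood at 0.654 to 1.6 (median 1.02) against 0.0728 to 0.176 (median 0.123). Every set mean of the members was above every set mean of the others. Napsa, an aspartic protease, stood at 0.854 to 1.35 (median 1.11) against 0.2 to 0.36 (median 0.295), again without overlap. Plasmacytoid dendritic cells taken alone overlapped with the members in both genes. They were at 1.16 to 1.47 (median 1.34) for Kmo and 0.483 to 1.23 (median 0.812) for Napsa. P2ry10, a lysophospholipid receptor, was higher by 0.584 (0.499 to 0.763), just under the size in 1 set. Flt3, the receptor that drives dendritic cell development, was low in the members at 0.177 to 0.576 (median 0.462). It was lower still in other myeloid cells as a whole, at 0.0353 to 0.0934 (median 0.075). In type 1 dendritic cells Flt3 was at 0.166 to 0.926 (median 0.691) and in mature ones at 0.245 to 0.706 (median 0.455). In plasmacytoid dendritic cells it was at 0.517 to 0.983 (median 0.626), and each of these classes overlapped with the members. Bcl11a, a transcription factor, was higher by 0.377 (0.105 to 0.809), and Cd83, a surface protein of activated antigen-presenting cells, by 0.969 (0.342 to 1.63). Itgax, which encodes CD11c, and Dpp4 each overlapped with the other myeloid cells, with differences of 0.304 (-0.254 to 0.866) and 0.343 (-0.0267 to 0.604). Cbfa2t3, a transcriptional corepressor outside these lists, was at 0.782 to 1.54 (median 1.39) against 0.187 to 0.301 (median 0.225). Other dendritic classes taken alone overlapped with the members in Cbfa2t3. Type 1 cells were at 0.397 to 1.18, mature cells at 0.424 to 1.51 and plasmacytoid cells at 0.454 to 0.814.

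MHC class II genes were abundant in the members, and most were higher than in other myeloid cells. Of 9 genes of antigen loading and presentation in the table, 2 were counted as higher and 1 as lower. In all 6 sets, 6 were higher and 1 lower, with a median difference of 0.756. Among all 1972 genes, 20 were counted as higher and 14 as lower, and 134 were higher and 515 lower in all 6 sets. Cd74, the invariant chain that guides class II molecules to the endosome, was at 3.49 to 4.1 (median 3.77) against 2.43 to 2.81 (median 2.5). H2-DMa, a chain of the peptide exchange factor, differed by 0.756 (0.656 to 1.09). The class II chains H2-Ab1, H2-Aa and H2-Eb1 differed by 1.26 (0.278 to 1.83), 1.26 (0.0872 to 1.59) and 1.09 (0.488 to 1.92), and fell short of the size because of set 3, where the smallest difference was found. Against C1q macrophages alone, 1 of the 9 genes, H2-DMa, was counted as higher and 1, Lgmn, as lower. There 5 were higher and 2 lower in all 6 sets, beside 150 higher and 480 lower of all 1972 genes. H2-Ab1 and H2-Aa overlapped, with C1q macrophages at 2.6 to 2.94 and 2.14 to 2.51. In set 3, H2-Aa was at 2.38 in the members and 2.48 in C1q macrophages. H2-Ob, a modulator of peptide exchange, was higher than in other myeloid cells by 0.314 (0.175 to 0.879). Ctss, a protease that trims the invariant chain, overlapped at 0.126 (-0.0463 to 0.241), and Lgmn, an endosomal protease abundant in macrophages, was the gene counted as lower, with a difference of -1.34 (-1.53 to -1.15). Hepatoma cells of set 1 also held class II RNA, at 185 CPM of H2-Ab1 and 389 CPM of Cd74, against 5021 and 5794 in the members. Its part in the result was not tested.

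The promoters of H2-Aa and H2-Eb1 are shown because both are class II chains and their windows hold the motif described below, as RefSeq gives them for GRCm38.p6. Each is 300 bases, from 250 before the start of transcription to 50 after it, in the direction of transcription. Class II promoters are known for a Y box, bound by NF-Y, and capitals mark CTGATTGG, the letters searched for on both strands. H2-Aa lies on the minus strand at chr17:34287774-34288073 and holds the motif from base 200. H2-Eb1 lies on the plus strand at chr17:34305617-34305916 and holds it from base 189.
H2-Aa: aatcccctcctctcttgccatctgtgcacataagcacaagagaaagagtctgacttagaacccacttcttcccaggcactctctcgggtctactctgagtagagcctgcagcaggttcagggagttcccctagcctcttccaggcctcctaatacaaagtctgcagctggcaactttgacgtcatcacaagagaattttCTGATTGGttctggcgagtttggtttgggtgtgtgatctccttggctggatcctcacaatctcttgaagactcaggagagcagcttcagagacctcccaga
H2-Eb1: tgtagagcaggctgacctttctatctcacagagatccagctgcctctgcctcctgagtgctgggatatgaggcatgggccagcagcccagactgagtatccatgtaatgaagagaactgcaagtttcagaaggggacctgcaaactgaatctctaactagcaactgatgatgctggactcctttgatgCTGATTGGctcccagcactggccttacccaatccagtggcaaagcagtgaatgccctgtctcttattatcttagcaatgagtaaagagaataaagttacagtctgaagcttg
The same letters occur in 4.1% of 32851 promoter windows of this length, Hspa1a and Hspa1b among them. Of 9 class II list genes, the windows of 7 were read, and only these 2 held the letters, while Ctss, H2-DMa, H2-DMb2, H2-Ob and Lgmn did not. The shorter TGATTGG was also in the windows of H2-DMb2 and H2-Ob, but not in those of Ctss, H2-DMa and Lgmn. It occurs in 7.82% of all windows. Cd74 and H2-Ab1 were not used here. A match describes the letters only.

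Inflammatory cytokine genes differed little by the rule of size. Of 11 inflammatory genes, none was counted as higher or lower, with 1 higher and 6 lower in all 6 sets, beside 134 higher and 515 lower of all 1972 genes. Il1b, which encodes interleukin 1β, was abundant in both, at 1.66 to 3.21 (median 1.98) in the members and 1.62 to 1.99 (median 1.7) in the others, and differed by 0.152 (-0.336 to 1.54). Set 1 held the largest of these differences and set 4 the only one below 0. Il1rn, the natural antagonist of interleukin 1, was at -0.198 to 0.251 (median 0.079) against 0.739 to 0.973 (median 0.836). Ptgs2, which encodes COX-2, was lower in all 6 sets, with a difference of -0.624 (-0.765 to -0.416). Areg, an EGF receptor ligand, was higher in all 6 sets by 0.166 (0.0892 to 0.601). For Il6, Tnf and Il12b, the differences were -0.0173 (-0.0439 to 0.138), -0.119 (-0.311 to 0.168) and -0.0131 (-0.0648 to -0.0101).

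No chemokine gene was higher in all 6 sets, and 10 of the 22 outside the gates were lower, 2 of them by the rule of size. Over all 1972 genes, 134 were higher and 515 lower in all 6 sets. Ccl24, an eosinophil attractant made by macrophages, was at 0.0217 to 0.283 (median 0.233) in the members against 1.09 to 1.68 (median 1.48). Cxcl2, a neutrophil attractant, was at -0.00516 to 0.558 (median 0.228) against 1.23 to 1.69 (median 1.38). Ccl4, an inflammatory chemokine, was well expressed in the members, at 1.06 to 2.39 (median 1.39), and overlapped with the others at 1.0 to 1.09 (median 1.02). Among receptors, 3 of 12 were higher and 4 lower in all 6 sets, beside the same counts over all genes. Ccr2, the receptor for monocyte recruitment that part of the type 2 lineage also carries, differed by 0.727 (0.239 to 0.967) and the oxysterol receptor Gpr183 by 0.418 (0.245 to 0.696). By summed UMIs of set 1, however, Ccr2 was at 221 CPM in the members and 231 CPM in other myeloid cells. Ccr1 was lower in all 6 sets, with a difference of -0.494 (-0.62 to -0.13).

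Monocyte genes did not move as a group. Of 19, 2 were counted as higher and 1 as lower, with 5 higher and 7 lower in all 6 sets and a median difference of -0.0538. Over all 1972 genes, 134 were higher and 515 lower in all 6 sets. The summed level of the list ran from 7.51 to 12.9 in the members and from 9.69 to 10.9 in other myeloid cells. S100a4, a calcium-binding protein, and the membrane protein gene Ms4a4c were the genes counted as higher, by 1.3 (0.98 to 1.61) and 0.636 (0.585 to 0.816). Lyz2, which encodes lysozyme, was at 0.203 to 1.3 (median 0.73) against 1.42 to 1.71 (median 1.51). Ly6c2, Cd14 and Fcgr1, the last encoding the Fc receptor CD64, overlapped between the groups, with differences of 0.0529 (-0.204 to 0.388), -0.258 (-0.541 to 0.329) and -0.0511 (-0.263 to 0.00458). In the 8 members of set 1, Ly6c2 and Fcgr1 had 0 UMIs, which is under the floor of 3 UMIs, or 82.8 CPM.

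Macrophage genes were mostly lower, in a contrast that the C1q gate partly fixes. Of 23 not used by the rule, 4 were counted as lower and 18 were lower in all 6 sets, against 1 higher in all 6. Over all 1972 genes, 515 were lower and 134 higher in all 6 sets. Mmp12, the macrophage elastase, was at -0.0178 to 0.339 (median 0.131) in the members and 1.35 to 1.67 (median 1.45) in the others. Fabp5, a fatty acid binding protein, the collagenase Mmp13 and the adhesion molecule Vcam1 differed by -0.918 (-1.1 to -0.583), -0.759 (-1.14 to -0.58) and -0.892 (-1.25 to -0.56). Against C1q-low cells, 12 of the 23 were lower in all 6 sets and none by the rule of size, beside 434 of all 1972 genes lower and 125 higher in all 6 sets. Mrc1, the mannose receptor, overlapped in both contrasts, at -0.0324 (-0.484 to 0.296) and 0.429 (-0.112 to 0.579).

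Heat-shock genes were among the largest differences from other myeloid cells as a whole. Of 12 stress and immediate early genes, 3 were counted as higher and none as lower, and 6 were higher and 1 lower in all 6 sets. Among all 1972 genes, 20 were counted as higher and 14 as lower, and 134 were higher and 515 lower in all 6 sets. Hspa1a, an inducible Hsp70 gene, was at 2.16 to 3.09 (median 2.85) in the members and 0.957 to 1.23 (median 1.12) in other myeloid cells, and its near-identical copy Hspa1b at 2.06 to 3.58 (median 2.42) against 0.826 to 1.12 (median 0.976). How reads matching both copies were counted is not given in the sources used here. Atf3, a stress-induced transcription factor, differed by 0.952 (0.586 to 1.75), and the chaperone genes Dnajb1 and Hsph1 by 0.563 (0.41 to 1.05) and 0.52 (0.17 to 1.24). The summed level of the list was 16.2 to 21.0 in the members and 11.6 to 12.4 in other myeloid cells, with no overlap. Against type 1 dendritic cells, 1 of the 12, Atf3, was counted as higher, and Hspa1a and Hspa1b were not. Still, Hspa1a was at 1.52 to 2.14 in type 1 cells, below every set mean of the members. Of the 12 genes, 6 were higher and 0 lower in all 6 sets, beside 122 higher and 392 lower of all 1972 genes. The summed level of the list in type 1 cells was 10.6 to 13.7, without overlap with the members. Against mature dendritic cells, 4 were counted as higher, Hspa1a but not Hspa1b among them, and 1 as lower. All 1972 genes gave 29 higher and 27 lower there. Hspa1b had a value of 1 or more in 77.3% of the members, 66.7% of type 1 and 68.8% of mature dendritic cells. For Hspa1a these shares were 84.5%, 68.8% and 46.9%. In set 1, hepatoma cells held 5.4 CPM of Hspa1a, against 2373 in the members. Their levels of the other stress genes named, apart from Hspa1b, were nearer those of the members: 419.8 CPM of Atf3 against 1876 in the members, 336 CPM of Dnajb1 against 414 and 263 CPM of Hsph1 against 441. The part of this tumour RNA in the result was not tested.

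Genes outside the lists were named by their ratio in set 1, or where they passed the size in all 6 sets, the latter chosen after their values were seen. Lsp1, an actin-binding protein of leukocytes, was at 1.03 to 1.87 (median 1.71) against 0.348 to 0.416 (median 0.388). Olfm1, a secreted olfactomedin, was at 1.08 to 1.73 (median 1.45) against 0.373 to 0.495 (median 0.426), and Cytip, a regulator of leukocyte adhesion, differed by 1.0 (0.672 to 1.18). Itgb7, an integrin chain of gut homing, differed by 0.687 (0.205 to 1.1), and S100a11 by 0.668 (0.536 to 0.805). The remaining genes counted as higher were Crip1, Coro1a, Gm42674, Wfdc17 and Plbd1, with differences of 1.33, 0.844, 0.831, 0.783 and 0.743. Among those counted as lower and not yet named were Pla2g7, Cd63, Ctsb, Aif1, Fcgr4 and Tnfaip2, with differences of -1.09, -1.05, -0.993, -0.903, -0.754 and -0.650.

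The C1q-low myeloid cells lay within the same gates as the members but had Cd209a below 1, so the C1q gate does not separate this contrast. Cells past the neutrophil, plasmacytoid and NK gates were kept out of them. Here 12 genes, or 0.609%, were higher in all 6 sets by the rule of size, and 4, or 0.203%, were lower. The higher genes were Clec10a, H2-Ab1, H2-Aa, Cd74, H2-Eb1, H2-DMa, Cd83, Hspa1a, Hspa1b, Olfm1, Plbd1 and S100a4. The class II chains were higher by 1.52 (0.82 to 2.35) for H2-Ab1, 1.46 (0.552 to 1.97) for H2-Aa and 1.21 (0.828 to 2.11) for H2-Eb1, with 5 of 9 list genes counted as higher. Clec10a differed by 1.62 (0.819 to 2.14). Among the lower genes were Cxcl2, Il1rn and Pla2g7, at -1.2 (-1.58 to -0.828), -0.894 (-1.24 to -0.638) and -0.827 (-1.02 to -0.592). The monocyte list had 10 of 19 genes lower and 3 higher in all 6 sets, where over all 1972 genes 434 were lower and 125 higher, and a summed level of 11.5 to 14.0 in C1q-low cells. Hspa1a differed by 1.32 (0.554 to 1.9) and Hspa1b by 1.01 (0.702 to 2.54). Lyz2 was lower in all 6 sets, with a difference of -0.957 (-1.54 to -0.299), and Kmo, Napsa and Flt3 were higher in all 6, by 0.897 (0.467 to 1.44), 0.636 (0.349 to 0.909) and 0.396 (0.144 to 0.512). Sirpa, Il1b and Ccr2 did not keep 1 direction, with differences of -0.254 (-0.475 to 0.138), -0.3 (-0.718 to 1.04) and 0.368 (-0.19 to 0.693).

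Set against type 1 dendritic cells, 11 genes, or 0.558%, were higher and 9, or 0.456%, lower. Among the higher genes were S100a4, Clec10a, Ms4a6c, Wfdc17, Il1b, Atf3, Gm42674, Ctss, Ms4a4c and Ccr2. S100a4 had a difference of 1.67 (1.43 to 1.9), Il1b of 1.1 (0.822 to 2.5) and Ccr2 of 0.883 (0.724 to 1.12). The lower genes were Cst3, Irf8, Naaa, Gsn, Asb2, Serpinb6b, Mpeg1, Itgae and Ifi205. Irf8, the transcription factor of the type 1 lineage, was at 0.399 to 0.846 (median 0.556) in the members and 1.82 to 2.18 (median 2.07) in type 1 cells, and Naaa, a lipid amidase, at 1.53 to 1.82 (median 1.61) and 2.66 to 3.47 (median 3.02). Class II genes overlapped: H2-Ab1 was at 2.88 to 4.01 (median 3.49) and 3.33 to 3.88 (median 3.6), and the list had a median difference of 0.00647. Kmo and Napsa also overlapped, with differences of 0.0945 (-0.328 to 0.535) and 0.0348 (-0.262 to 0.578).

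Mature dendritic cells carry Ccr7 and migrate to lymph nodes. Against them 29 genes, or 1.47%, were higher in the members and 27, or 1.37%, lower. Among the higher genes were Clec10a at 1.88 (0.993 to 2.28), Cd74 at 1.29 (0.714 to 2.01) and H2-Ab1 at 1.24 (1.18 to 2.47), and Ccr2 at 1.31 (0.755 to 1.61) and Il1b at 1.22 (0.629 to 2.37). Among the lower genes were Serpinb6b, an intracellular serpin, at -2.35 (-2.97 to -1.99), Ccl5 at -1.7 (-1.97 to -1.35), Irf8 at -1.4 (-1.74 to -1.01), the checkpoint ligand Cd274 at -0.802 (-1.03 to -0.542) and the costimulatory gene Cd86 at -0.75 (-0.924 to -0.544). Of 14 mature dendritic genes outside the gate, 9 were counted as lower. S100a4 and Cd83 overlapped between the 2 classes, at 0.0369 (-0.532 to 0.428) and -0.235 (-0.755 to 0.777).

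**Figure D3:**
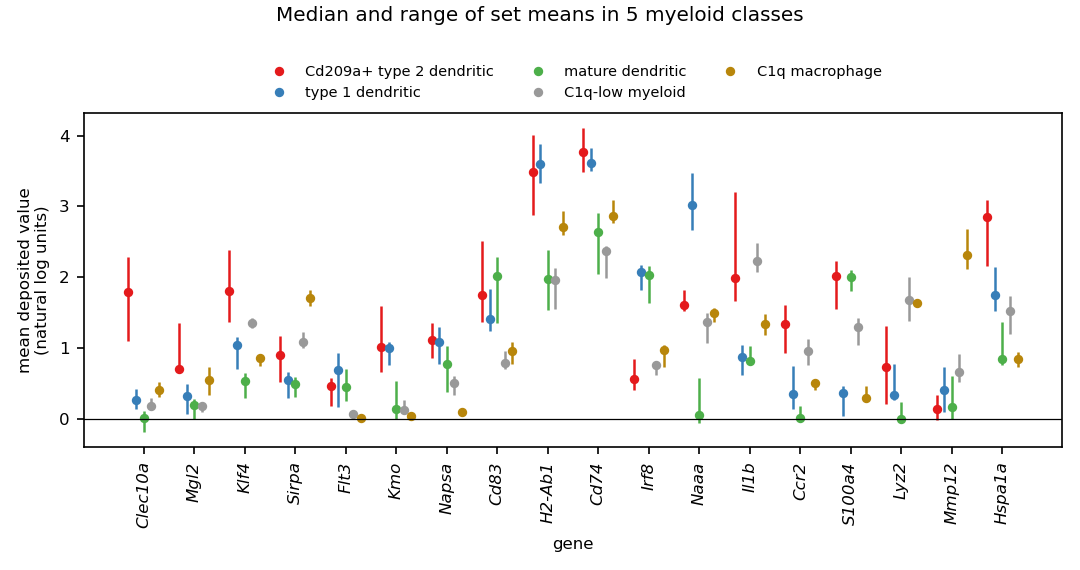
Mean deposited value of 18 genes in 5 classes of myeloid cell, in natural log units. Points are medians of the 6 set means and bars run from the lowest to the highest set. Of the classes shown, Clec10a is highest in the Cd209a-positive cells, H2-Ab1 and Cd74 overlap with type 1 dendritic cells, and Irf8 and Naaa are higher in type 1 cells. Plasmacytoid dendritic cells are not shown, and their Clec10a means ran from 0.923 to 1.21.

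The members varied among themselves. A gene is called raised below in a cell where its value was 1 or more, equal to 1.72 UMIs per 10000 in set 1. Cd74 was raised in 95 of the 97 cells, or 97.9%, H2-Ab1 in 92 cells, S100a4 in 83, Hspa1a in 82 and Clec10a in 70 of the 97 cells, or 72.2%. Kmo was raised in 52, Mgl2 in 37 of the 97 cells, or 38.1%, Flt3 in 23, Ly6c2 in 19 of the 97 cells, or 19.6%, and Fcgr1 in 12 cells. A low value in a shallow cell is not absence, and the depth of the cells of sets 2 to 6 is unknown.

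Mgl2 and Ly6c2, raised in 37 and 19 cells, were raised together in 0, which allows up to 8.11% of the Mgl2 cells and up to 15.8% of the Ly6c2 cells. This pair was singled out after its values were seen. The remaining 41 cells had neither raised. Flt3 and Ly6c2 were raised together in 2 cells, Flt3 and Fcgr1 in 2, Mgl2 and Flt3 in 10 and Clec10a and Mgl2 in 31. Cells with raised Ly6c2 had Clec10a raised in 68.4%, near the 72.2% of all members, and Ccr2 in 73.7%, against 59.0% of the other members. Of the cells with raised Flt3, 82.6% had Napsa raised, against 54.1% of the other members, and 65.2% had Kmo raised, against 50%. No set 1 member had a Ly6c2 UMI, so the Ly6c2 cells all came from sets with changed values.

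**Figure D4:**
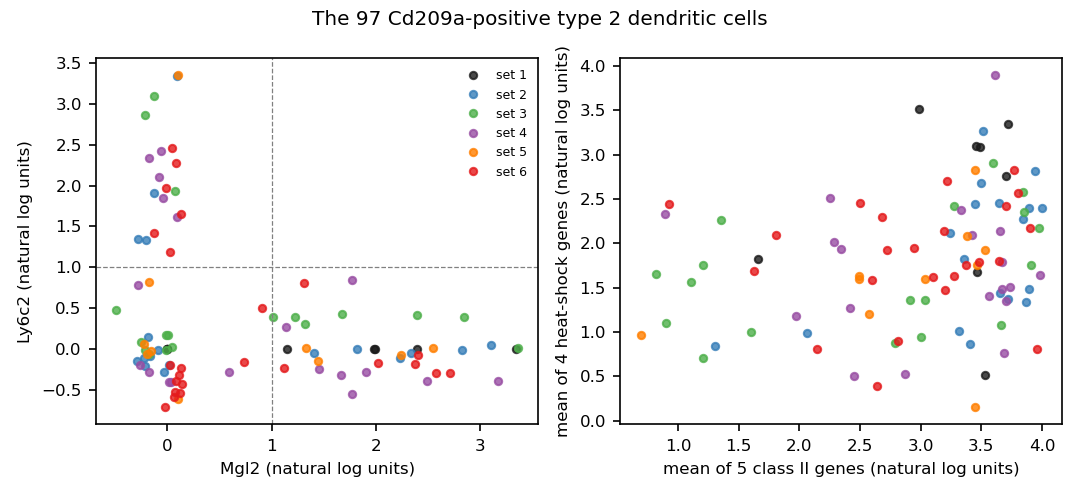
The 97 Cd209a-positive type 2 dendritic cells, 1 point each, coloured by set, in natural log units. Left, Mgl2 against Ly6c2 with dashed lines at 1: no cell lies past both lines. Right, the mean of H2-Aa, H2-Ab1, H2-Eb1, Cd74 and H2-DMa against the mean of Hspa1a, Hspa1b, Dnajb1 and Hsph1, which were weakly related (r = 0.232).

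Across the 97 cells, with each gene centred on its set mean, class II genes varied together. H2-Aa, H2-Ab1, H2-Eb1 and Cd74 had Pearson r of 0.82 to 0.93 with the mean of 5 class II genes that contains them. That mean had r = 0.447 and Spearman rho = 0.420 with Cd83, and r = -0.242 and rho = -0.270 with Ccr2. Ccr2 had r = 0.384 and rho = 0.358 with Lyz2. These are descriptions without a test: cells share libraries, and depth and the unrecorded change of values act on all genes of a cell.

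In set 1 the members' 8 cells held 36246 UMIs, and 45.4% of these came from 1 cell of 16452 UMIs, while the other cells had 1589 to 4648. Clec10a had 30 UMIs, 828 CPM (interval 558 to 1182), against 121 CPM in 694 other myeloid cells, a ratio of 6.82 (interval 4.53 to 9.9). It was found in all 8 cells. H2-Ab1 had 182 UMIs, 5021 CPM (interval 4318 to 5806) and a ratio of 2.28 (interval 1.95 to 2.64), and Cd74 a ratio of 2.36 (interval 2.05 to 2.7). Hspa1b had 120 UMIs, 3311 CPM (interval 2745 to 3959) and a ratio of 6.45 (interval 5.31 to 7.77). Mgl2 had 51 UMIs, 1407 CPM (interval 1048 to 1850), but 45 of its 51 UMIs lay in the deepest cell, and the log2 ratio of 3.35 was 1.13 without it. Il1b had 92 UMIs in 7 of 8 cells, and none in the deepest, so its log2 ratio of 0.79 was 1.66 without that cell. Lyz2 had 5 UMIs, a ratio of 0.115 (interval 0.0373 to 0.268), and Mmp12 had 4, a ratio of 0.0457 (interval 0.0124 to 0.117). Flt3 had 1 UMI in the members, with a ratio of 1.42 (interval 0.0353 to 8.22), so no difference was detectable at this depth. Intervals are exact and cover counting error only.

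At the depth of 8 cells the number of genes past a 2-fold ratio says little. Of 1037 genes with at least 20 UMIs, 159, or 15.3%, were past 2-fold higher and 596, or 57.5%, past 2-fold lower. Among the lower genes, 470 had 0 UMIs in the members, and 21 of those stayed past 2-fold with the members set at the floor of 3 UMIs. Pla2g7 was at least 5.32-fold lower on that floor. Of the higher genes, 54 rested on 3 or fewer UMIs. The median log2 ratio was 1.19 for class II genes, 1.41 for pan-dendritic genes, 1.05 for type 2 genes, 0.86 for stress genes, -3.11 for monocyte genes and -4.69 for macrophage genes, against -1.78 over all genes. The medians of the genes' interval bounds spanned 0 for pan-dendritic genes (-0.57 to 3.16), type 2 genes (-0.62 to 2.32), stress genes (-0.03 to 1.71) and monocyte genes (-4.41 to 1.10), but not for class II (0.93 to 1.62) or macrophage genes (-6.32 to -0.96). With each other myeloid class weighted equally, the pan-dendritic median was 0.48 and the type 2 median 0.70. With genes at 0 UMIs set at the floor, the monocyte and macrophage medians were 0 and -1.51, while those of the other 4 lists did not move.

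Markers of T, NK and B cells summed to low levels in the members, while hepatoma genes summed to more. The summed T cell list ran from near 0 to 1.74 over the sets, against 0.0245 to 0.454 in other myeloid cells, the NK list from 0.797 to 1.94 against 0.460 to 0.627, and the B and plasma cell list from near 0 to 0.870 against 0.249 to 0.374. The hepatoma list, at 6.03 to 7.45 against 7.75 to 8.78, and the neutrophil list, at 0.247 to 1.39 against 1.64 to 3.89, were lower in the members. None of the genes of these 5 lists outside the gates was counted as higher or lower. Cells past the NK gate were kept out of the other myeloid cells but not out of the members. This gating can by itself raise NK sums in the members relative to the others. Of the 97 members, 1 passed the NK gate, and the part of the gating in the NK result was not tested. Within the NK list, Klrb1b was higher in the members in all 6 sets, by 0.482 (0.253 to 0.853), and was raised in 38 of the 97 cells.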

How the data were processed

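The deposited table held 2000 genes by 53528 cells of mouse tumours, as natural log values made by the authors. UMIs were counted per cell with PISA, per the series' design text, and reads were aligned with STAR 2.7.2b, per the submitters' processing notes. These name GRCh38, a human build, and mm10, and the gene symbols of the table are those of mouse. In set 1, whole UMIs were recovered from the deposited natural log values for 100% of nonzero values (tolerance 0.01). Its cells held 1001 to 261833 UMIs. Sets 2 to 6 keep no depth. The names of 53528 columns give no sample, so no cell was mapped to a group.

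Set means were differenced within each set, and a gene counted as higher or lower past 0.5 in all 6 sets. Comparison classes were taken by similar gates on marker genes of C1q macrophages, type 1 and mature dendritic cells, neutrophils, plasmacytoid cells and hepatoma cells, and C1q-low cells were the rest of the myeloid cells. Cells past an NK gate were left out of the myeloid comparison classes, and this gate was not applied to the members. The 28 genes of the gates were left out of these counts, which leaves 1972. In set 1, UMIs of the 8 cells and of other myeloid cells without doublets were summed and their CPM ratio taken with a pseudocount of 1 CPM and at least 20 UMIs. Scrublet marked 91 of 9370 set 1 cells (0.971%) and none of the 8. Sets 2 to 6 were not searched for doublets. Genes named were those of gene lists for the cell type. Outside the lists they were drawn from the 20 genes with the highest and the 10 with the lowest set 1 ratio. Each of these kept the same direction in every set, and exceptions are stated. Members, lists and rules were chosen with earlier results of these data known. The set 1 calculation was tested on simulated data. Alternatives were other thresholds, comparators, pseudocounts, filters and thinning. Replicates of a group were not available to a test. Python 3.11.15, numpy 2.4.6, pandas 2.3.3, scipy 1.17.1, scanpy 1.11.5 and matplotlib 3.10.9 were used. Some genes of the lists are not reported here by name.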

Additional observations from a re-analysis of the deposited data

Results flagged for a closer look

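Of 66 results with a value in each of the 6 sets (64 genes and 2 shares), 1 had a set far from the others. Dnajb1, a co-chaperone of Hsp70, was higher in the Cd209a-positive cells than in other myeloid cells of set 1 by 1.05 natural log units. Its lowest difference in the other sets was 0.410, and the gap of set 1 to its nearest neighbour was 0.646 of the whole range, above the 95% critical value of Dixon for 6 values. Chance marks about 1 in 20 such groups, and 1 of 66 is below that share. Set 1 is also the set whose values are unchanged UMI logs, and its mean rests on 8 cells.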

How the results depend on the processing

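The share of myeloid cells, 1.89%, was 1.5% with Cd209a of at least 1.5, 1.03% with at least 2 and 2.40% where the mean of Tyrobp and Fcer1g had to reach 1. It was 4.11% of the 2358 myeloid cells that remain without C1q macrophages and neutrophils, 0.181% of all cells and 1.12% in set 1 alone. The 20 genes higher in all 6 sets were 2 at a difference of 1, 42 at 0.25 and 12 against C1q-low cells, and the 14 lower genes were 2, 40 and 4. In set 1 the 159 genes past 2-fold higher were 105 against C1q-low cells. The 596 lower genes were 1035 with no filter on low counts, 349 with cells thinned to 1000 UMIs, 316 against C1q-low cells and 147 with genes at 0 set at 3 UMIs. The median log2 ratio was -6.16 for monocyte genes and -7.96 for macrophage genes at a pseudocount of 0.1 CPM, and -7.22 for macrophage genes after thinning. A set 1 value is said to have moved when it left its counting interval (for a list, the medians of the bounds of its genes), and a count when it changed over 1.5 times. Of 192 values of named genes in set 1, 38 moved and 0 reversed. Of 62 counts and shares 17 moved, of 72 list medians 3 moved, and 0 of either reversed. The list intervals are wide: the monocyte median at 0 and the macrophage median at -1.51, with genes at 0 set at 3 UMIs, and the pan-dendritic median at 0.48, with classes weighted equally, lie within them and are not among the 3. Leaving out 1 set at a time, or the 6 cells past another gate, moved no count over 1.5 times. The deepest set 1 cell, the floor of 3 UMIs and the 6 cells were alternatives chosen after seeing the data. No paired analysis was possible because no cell could be tied to a replicate. The 8 cells of set 1 limit every ratio there, and sets 2 to 6 have no known depth.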

Other observations

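Cell cycle genes of the Cd209a-positive cells were compared with those of type 1 dendritic cells. Of 20 in the table, 14 were lower in all 6 sets and none higher, with none past the difference of 0.5 in every set, beside 392 of all 1972 genes lower and 122 higher in all 6 sets. Their summed level ran from 3.65 to 5.40 natural log units in the Cd209a-positive cells and from 6.70 to 10.1 in type 1 cells. Mki67, a marker of dividing cells, had a value of 1 or more in 9 of the 97 cells (9.28%) and in 17 of 144 type 1 cells (11.8%). Against other myeloid cells, 1 cell cycle gene was higher and 4 lower in all 6 sets, beside 134 higher and 515 lower of all 1972 genes.

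Interferon-stimulated genes did not move as a group. Of 20, 2 were higher and 3 lower than in other myeloid cells in all 6 sets, beside 134 higher and 515 lower of all 1972 genes. Ifitm3, an interferon-induced membrane protein that blocks virus entry, differed by 0.802 (0.243 to 1.03). In set 1 it stood at 1247 CPM in hepatoma cells, above the 828 CPM of the Cd209a-positive cells and the 534 CPM of other myeloid cells, and the part of this in the result was not tested. Of 11 genes of lipid handling, none was higher in all 6 sets and 6 were lower, beside the same counts over all genes. Among the 6 lower genes, Apoe, the apolipoprotein made by macrophages, had a difference of -0.63 (-0.947 to -0.448).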
